A study of Mus musculus with 6 samples.

Results

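The genes described here are 10 genes of the acid-secreting parietal cell, namely Atp4a, Atp4b, Kcnq1, Kcne2, Slc26a7, Slc9a4, Clic6, Aqp4, Cckar and Esrrg. They were chosen by symbol, and each was found once among the 39179 genes of the deposited table. Their levels were measured by RNA sequencing of the mouse pylorus, where the stomach empties into the duodenum, in 3 Sox2 KO and 3 Sox2 WT libraries. Sox2 KO mice were Rosa26CreER with Sox2 fl/fl, so that a tamoxifen-activated Cre made from the ubiquitously active Rosa26 locus could delete the gene for the transcription factor SOX2 in any cell type. Sox2 WT mice were Rosa26WT with the same Sox2 fl/fl alleles and lacked CreER, so Cre itself also differed between the groups. Mice of both groups were of a mixed C57BL/6 x 129 background, received tamoxifen at 8 weeks of age and were sampled 2 weeks later; the series text gives 10 weeks and the age label 8 weeks. The tissue was incubated cold until the muscle layer could be pulled away, and RNA was made from what was left, epithelium with mesenchyme. Whether each library stands for its own mouse is not stated, so the spread behind the p-values may be partly technical.

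Parietal cells acidify the stomach with the H+/K+-ATPase, a pump in the apical membrane that trades cytoplasmic protons for luminal potassium. Potassium leaves again through an apical channel, chloride follows into the lumen, and basolateral exchangers return the base left in the cytoplasm to the blood. Histamine, acetylcholine and gastrin drive the cell, and somatostatin restrains it. The cells are most dense in the glands of the corpus, the acid-producing main body of the stomach, whereas the antrum and pylorus hold mainly mucous glands and the gastrin-secreting G cells.

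The deposited values are RPKM, reads scaled by gene length and library size, so levels can be compared between genes as well as between libraries. The whole reads behind them sum to between 29661666 and 32455041 per Sox2 KO library and between 21922917 and 27432374 per Sox2 WT library. Sox2, the targeted gene, was at 0.342, 0.210 and 0.420 RPKM in Sox2 KO and 11.1, 9.03 and 10.9 RPKM in Sox2 WT (log2 fold change -3.72, limma adjusted p = 2.9e-04). Antral genes were present throughout, with gastrin, Gast, between 2766 and 6095 RPKM in Sox2 KO and between 3056 and 6383 RPKM in Sox2 WT. Of 10 genes of forestomach squamous epithelium, 2 were listed at 0 in all 6 libraries and the sum was 1.26 to 2.80 RPKM in Sox2 KO and 1.12 to 2.40 RPKM in Sox2 WT. The female-specific RNA Xist reached 36.3 RPKM in Sox2 WT replicate 2 and 33.3 RPKM in Sox2 WT replicate 3, and did not exceed 0.0124 RPKM elsewhere, so sex differed along with genotype.

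Transcripts of the proton pump were abundant in every library and varied more within Sox2 WT than between the genotypes. Atp4a, the catalytic subunit (ENSMUSG00000005553, chromosome 7, 30712209 to 30725534, mm10), was at 522, 526 and 256 RPKM in Sox2 KO replicates 1 to 3, against 307, 961 and 135 RPKM in the Sox2 WT libraries in the same numbering. Sox2 WT replicate 2 was highest and Sox2 WT replicate 3 lowest, 7.14 times apart, and all 3 Sox2 KO libraries lay between them. The group means were 435 ± 155 RPKM in Sox2 KO and 467 ± 436 RPKM in Sox2 WT (SD, n = 3 each), with a log2 fold change of 0.27 (SE 0.669, 95% interval -1.29 to 1.84, limma adjusted p = 1.00). The mean is lower in Sox2 KO while the log2 fold change is positive, because the single high Sox2 WT library weighs more on the linear scale. Atp4b, the glycosylated beta subunit that the pump needs for assembly (ENSMUSG00000031449, chromosome 8, 13386205 to 13396825), was at 745, 815 and 423 RPKM in Sox2 KO, against 430, 1656 and 209 RPKM in Sox2 WT. Its libraries stood in the same order as those of Atp4a, with a log2 fold change of 0.26 (SE 0.696, limma adjusted p = 1.00).

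The pair of subunits kept a near-constant proportion. Atp4b was 1.43, 1.55 and 1.65 times Atp4a in Sox2 KO replicates 1 to 3, against 1.40, 1.72 and 1.55 times in Sox2 WT replicates 1 to 3. This ratio differed by 1.23 times between the extreme libraries, whereas Atp4b alone differed by 7.92 times. Atp4a and Atp4b together made up between 67.0% and 86.4% of the summed RPKM of the 10 genes in a library. At these levels counting error is small: Atp4a rested on 58664, 57681 and 32739 reads in Sox2 KO and on 27954, 101572 and 12949 reads in Sox2 WT. In bulk tissue, fewer parietal cells and less RNA per parietal cell cannot be told apart.

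**Figure D1:**
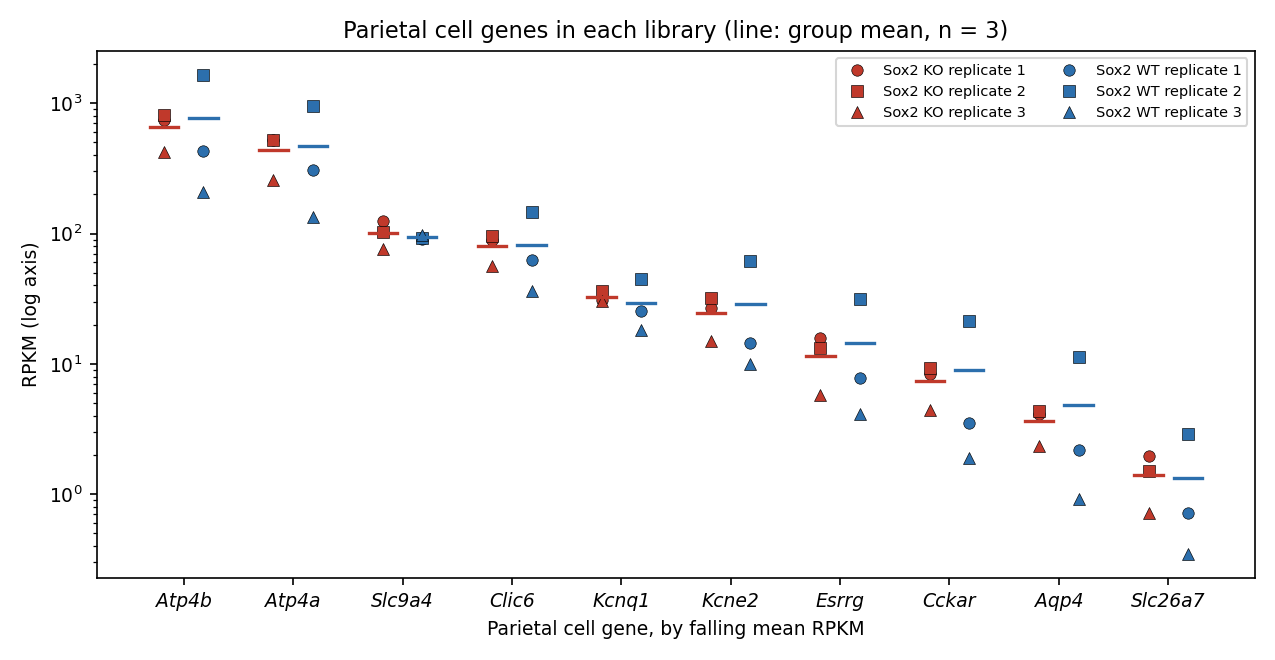
RPKM of the 10 parietal cell genes on a log axis, ordered by mean, with Sox2 KO libraries in red to the left of Sox2 WT libraries in blue and a line at each group mean (n = 3). The 3 Sox2 KO values lie between the lowest and the highest Sox2 WT value in 9 genes, and Slc9a4 is the gene with the tightest Sox2 WT values.

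The potassium channel of the apical membrane divided into a subunit that moved with the pump and one that moved less. Kcne2, the single-pass accessory subunit (ENSMUSG00000039672, chromosome 16, 92292389 to 92298129), was at 26.7, 32.0 and 15.0 RPKM in Sox2 KO, against 14.5, 61.8 and 9.91 RPKM in Sox2 WT. Its libraries were 6.24 times apart, again with both extremes in Sox2 WT, with a log2 fold change of 0.17 (SE 0.634, limma adjusted p = 1.00). Kcnq1, the pore-forming subunit (ENSMUSG00000009545, chromosome 7, 143106362 to 143427042), was at 30.9, 36.1 and 30.5 RPKM in Sox2 KO, against 25.3, 45.0 and 18.2 RPKM in Sox2 WT. The 6 libraries stood in the same order as for Kcne2, but the extremes were 2.47 times apart, with a log2 fold change of 0.23 (SE 0.296, 95% interval -0.46 to 0.93, limma adjusted p = 1.00). The ratio of Kcne2 to Kcnq1 therefore ran from 0.493 to 0.888 in Sox2 KO and from 0.544 to 1.37 in Sox2 WT, 2.79 times between extremes. The Kcnq1 locus also holds the antisense RNA Kcnq1ot1 and other overlapping transcripts, and without strand information their reads cannot be told apart from those of Kcnq1. Atp4b, Aqp4, Slc9a4, Esrrg and Clic6 also overlap other annotated transcripts, with the same limit.

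Among the other potassium channel genes, Kcne1, another accessory subunit that can pair with Kcnq1, was at 0.751, 1.13 and 0.377 RPKM in Sox2 KO, against 0.718, 1.26 and 0.219 RPKM in Sox2 WT, and thus lower than Kcne2 in each library. Kcnj15 and Kcnj16, which encode inwardly rectifying channels, were highest in Sox2 WT replicate 2 and lowest in Sox2 WT replicate 3, 2.75 and 3.52 times apart. These were chosen after their values were seen, and 6.79% of all tested genes have the same extremes. Kcnj10, of the same kind, was low and went the other way in Sox2 WT replicate 2. It was lowest there, at 0.231 RPKM, and highest in Sox2 WT replicate 1, at 0.529 RPKM. Kcnj1 was at most 0.0601 RPKM.

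RefSeq promoter sequence was at hand for 3 of the 10 genes (build GRCm38.p6, 7 windows, of which 4 belong to Esrrg). The promoters of Atp4a and Kcne2 are printed, though Esrrg moved with Atp4a as closely as Kcne2 did. The SD of the difference from Atp4a was 0.21 for Esrrg and 0.23 for Kcne2. Each line gives the 250 bases before a transcription start, on the plus strand, at chr7:30711959-30712208 for Atp4a and chr16:92292139-92292388 for the upstream start of Kcne2. Capitals mark AAGGTTA.
Atp4a: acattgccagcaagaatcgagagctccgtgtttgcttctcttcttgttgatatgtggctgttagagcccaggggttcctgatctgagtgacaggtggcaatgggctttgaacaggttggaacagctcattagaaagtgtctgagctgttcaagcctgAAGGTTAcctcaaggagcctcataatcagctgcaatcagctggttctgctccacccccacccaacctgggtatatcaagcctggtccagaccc
Kcne2: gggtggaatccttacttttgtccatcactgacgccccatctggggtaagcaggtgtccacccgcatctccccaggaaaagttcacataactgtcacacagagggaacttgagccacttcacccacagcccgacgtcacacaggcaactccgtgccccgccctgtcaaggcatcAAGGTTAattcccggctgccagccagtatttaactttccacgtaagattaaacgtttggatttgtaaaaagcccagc
Searched on both strands, the 7 windows held no TNAAGGTCA, the extended half-site of the estrogen-related receptors, no AAGGTCA, the core within it, and no AGATAA, which GATA factors bind. These occur in 1.14%, 4.08% and 9.99% of all 32851 windows of that length. AAGGTTA, which differs from the core by 1 letter and was chosen after the sequences were seen, occurs in both printed windows and in 2.23% of all windows. It is absent from the second Kcne2 window and from the 4 windows of Esrrg, so it is not shared by the genes that moved together.

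The exchangers of the basolateral membrane in the set went separate ways. Slc26a7, a chloride-bicarbonate exchanger (ENSMUSG00000040569, chromosome 4, 14502430 to 14621805), was the least abundant of the 10 genes, at 1.95, 1.52 and 0.723 RPKM in Sox2 KO, against 0.722, 2.91 and 0.348 RPKM in Sox2 WT. It followed the pump, with extremes 8.34 times apart in Sox2 WT replicates 2 and 3 (log2 fold change 0.26, SE 0.508, limma adjusted p = 1.00), on between 50 and 458 reads per library. Slc9a4, the sodium-proton exchanger NHE4 (ENSMUSG00000026065, chromosome 1, 40580081 to 40630725), was at 126, 103 and 75.7 RPKM in Sox2 KO, against 91.3, 92.9 and 97.6 RPKM in Sox2 WT. Here the Sox2 WT libraries were within 1.07 times of each other, and the extremes were both Sox2 KO libraries, 1.66 times apart (log2 fold change 0.08, SE 0.186, 95% interval -0.36 to 0.52, limma adjusted p = 1.00). Relative to Atp4a, Slc9a4 stood at 24.1%, 19.6% and 29.6% in Sox2 KO, against 29.7%, 9.67% and 72.5% in Sox2 WT. Slc9a4 was thus the gene of the set whose library order was unlike that of the other 9.

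The remaining transport genes varied as the pump did. Clic6, of the chloride intracellular channel family (ENSMUSG00000022949, chromosome 16, 92485736 to 92541243), was at 89.4, 94.97 and 55.9 RPKM in Sox2 KO, against 62.9, 146 and 36.5 RPKM in Sox2 WT. It had the library order of Atp4a with a narrower range of 3.99 times, and a log2 fold change of 0.17 (SE 0.471, limma adjusted p = 1.00). Aqp4, a water channel of the basolateral membrane (ENSMUSG00000024411, chromosome 18, 15389496 to 15410982), was at 4.15, 4.35 and 2.36 RPKM in Sox2 KO, against 2.18, 11.3 and 0.911 RPKM in Sox2 WT. Its range of 12.4 times was the widest of the 10 genes, with a log2 fold change of 0.18 (SE 0.702, limma adjusted p = 1.00).

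The receptor and the transcription factor of the set did likewise. Cckar, a receptor for cholecystokinin (ENSMUSG00000029193, chromosome 5, 53697776 to 53707705), was at 8.40, 9.33 and 4.41 RPKM in Sox2 KO, against 3.54, 21.5 and 1.90 RPKM in Sox2 WT, a range of 11.3 times (log2 fold change 0.34, SE 0.754, limma adjusted p = 1.00). Its paralog Cckbr, the gastrin receptor, was far lower, at 0.279, 0.374 and 0.189 RPKM in Sox2 KO, against 0.225, 0.810 and 0.188 RPKM in Sox2 WT, and fell under the filter on low values. Esrrg, a nuclear receptor that controls mitochondrial genes (ENSMUSG00000026610, chromosome 1, 187608791 to 188214885), was at 15.8, 13.1 and 5.72 RPKM in Sox2 KO, against 7.76, 31.4 and 4.16 RPKM in Sox2 WT. The log2 fold change of Esrrg was 0.06 (SE 0.691, 95% interval -1.56 to 1.68, limma adjusted p = 1.00). The related receptor Esrra was between 48.3 and 49.7 RPKM in Sox2 KO and between 39.4 and 46.7 RPKM in Sox2 WT, groups that do not overlap (limma log2 fold change 0.18, unadjusted p = 0.121). Esrrb, the third of the family, was at most 0.595 RPKM in Sox2 KO and at most 0.981 RPKM in Sox2 WT.

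Across the set, the libraries formed the tiers read from Atp4a in 9 of 10 genes, a count that includes Atp4a itself. Sox2 WT replicate 2 was on top, then Sox2 KO replicates 1 and 2, then Sox2 KO replicate 3 and Sox2 WT replicate 1, with Sox2 WT replicate 3 at the bottom. These tiers, chosen after the values were seen, hold in 373 of 14045 tested genes (2.66%). On the log2(RPKM + 0.5) scale, the genes deviated from their own means by a median of 0.37, 0.36 and -0.45 in Sox2 KO replicates 1 to 3 and -0.42, 1.41 and -1.18 in Sox2 WT replicates 1 to 3. Sox2 WT replicates 2 and 3, the extremes, are the 2 libraries with Xist, so their difference lies within 1 sex. Among the 4 libraries without Xist, Sox2 WT replicate 1 lay inside the range of the 3 Sox2 KO libraries in 5 of the 10 genes, close to the 51.4% of all tested genes.

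**Figure D2:**
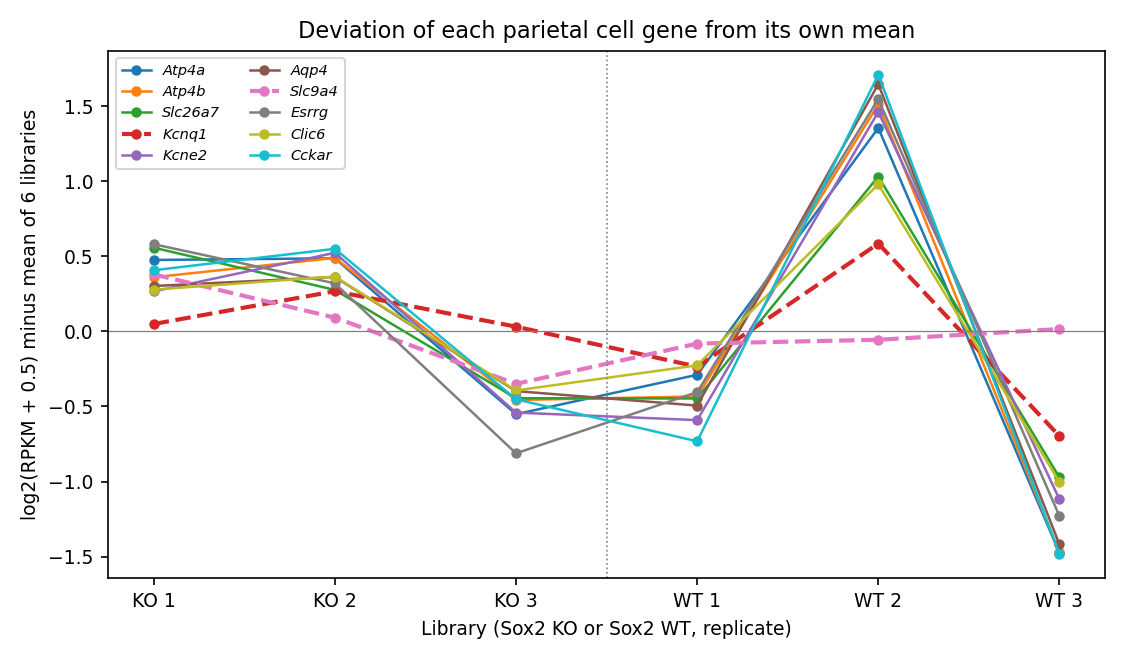
Deviation of each parietal cell gene from its own mean over the 6 libraries, in log2(RPKM + 0.5), with Sox2 KO libraries left of Sox2 WT libraries and a line per gene. The genes share a peak in Sox2 WT replicate 2 and a low in Sox2 WT replicate 3, with Kcnq1 flatter and Slc9a4 without either (both dashed).

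Setting each gene against Atp4a shows how closely they moved. Atp4a had an SD of 0.99 over the 6 libraries on the log2(RPKM + 0.5) scale. The difference from Atp4a had an SD of 0.12 for Atp4b, 0.20 for Aqp4, 0.21 for Esrrg, 0.23 for Kcne2, 0.26 for Cckar, 0.30 for Slc26a7 and 0.30 for Clic6. For Kcnq1 it was 0.60 and for Slc9a4 0.95, both larger than the SD of the gene itself, which was 0.44 and 0.24. The SD of a gene over the libraries had a median of 0.96 in the 10 genes and of 0.18 in all genes tested. Leaving out Sox2 WT replicate 2 narrowed the range of Atp4a to 3.91 times, and the median SD of the difference from Atp4a was then 0.26, as with all 6 libraries.

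**Figure D3:**
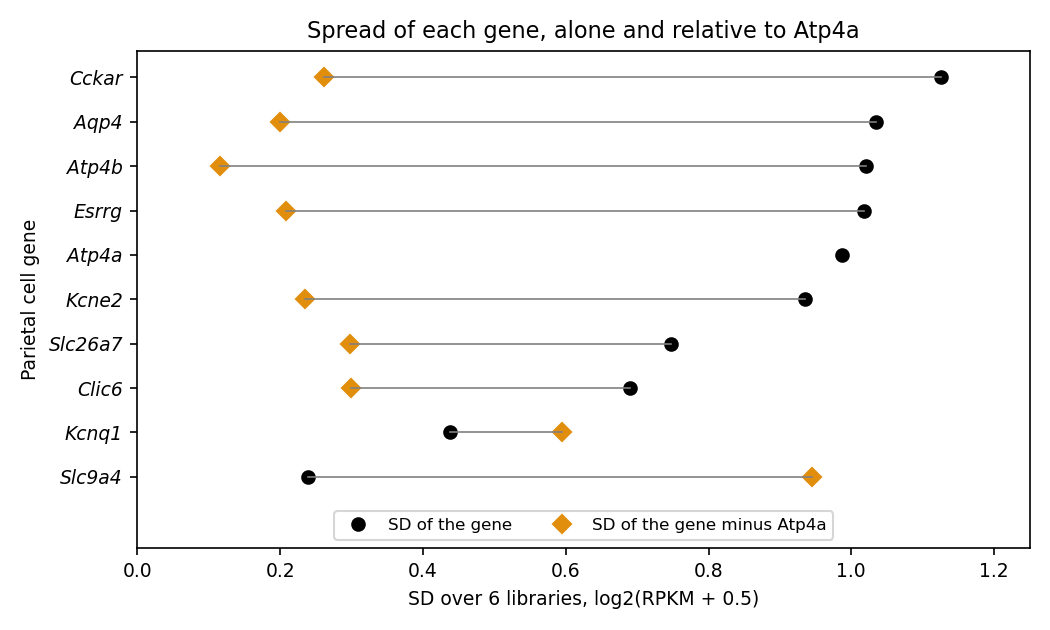
SD over the 6 libraries of log2(RPKM + 0.5) for each parietal cell gene (black circles) and of its difference from Atp4a (orange diamonds). The difference varied less than the gene itself in 7 of 9 genes and more in Kcnq1 and Slc9a4.

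No gene of the set passed the test of Sox2 KO against Sox2 WT. limma called 0 of the 10 genes at an adjusted p under 0.05, against 4 of 14045 genes tested (0.0285%), and 0 of the 10 had an unadjusted p under 0.05, against 442 of all genes tested (3.15%), a share at which a count of 0 among 10 says little. The groups overlapped in all 10 genes, while 7.08% of all tested genes had 3 Sox2 KO values apart from the 3 Sox2 WT values. In 9 of the 10 genes all Sox2 KO values were inside the Sox2 WT range, as in 23.4% of all tested genes. The log2 fold changes ran from 0.06 to 0.34 with a median of 0.20, beside a median of 0.02 over all genes. Their median SE was 0.652, against 0.149 over all genes, and the interval of Cckar reached from -1.43 to 2.10, so that changes of that size were not detectable here.

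The direction rested on single Sox2 WT libraries. Without Sox2 WT replicate 2 the median log2 fold change of the 10 genes was 0.89, with 6 genes at an unadjusted p under 0.05, against 5.45% of the 14032 genes tested. None of the 10 was past the adjusted threshold, against 3 of all genes (0.0214%), and the lowest limma adjusted p of the 10 was 0.673, for Cckar. Without Sox2 WT replicate 3 the median was -0.34, and 9 of the 10 genes had a negative log2 fold change. Sox2 WT replicate 2 was the highest and Sox2 WT replicate 3 the lowest library in 9 of the 10 genes. Each omission therefore shifts the fold changes of those 9 in a direction fixed in advance. Most of the 10 genes also moved together, so the 6 genes with an unadjusted p under 0.05 are not independent results. With sex as a covariate, which sets Sox2 KO against Sox2 WT replicate 1, the median was 0.50 and 0 of the 10 genes passed.

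**Figure D4:**
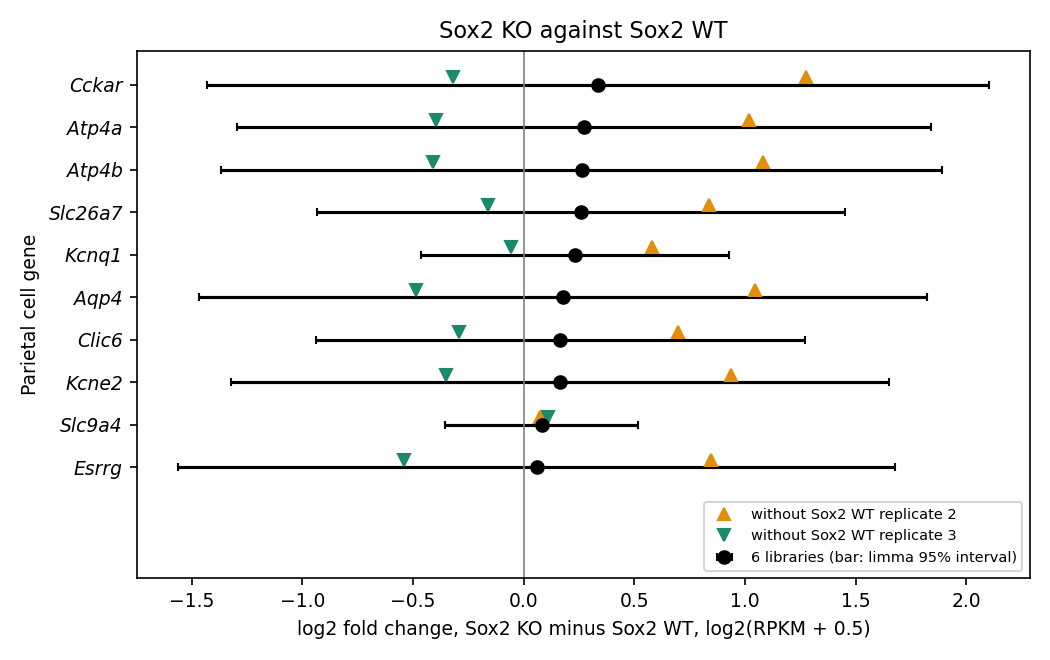
Log2 fold change of each parietal cell gene, Sox2 KO minus Sox2 WT, from limma on log2(RPKM + 0.5) with its 95% interval (black), and the estimates without Sox2 WT replicate 2 (orange) and without Sox2 WT replicate 3 (green). All 10 intervals span 0, and 9 estimates change sign between those omissions, Slc9a4 being the exception.

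Other genes of acid secretion shared the pattern in part. Of 35 genes tested in 4 lists, 9 were highest in Sox2 WT replicate 2 and lowest in Sox2 WT replicate 3, against 6.79% of all tested genes. These 9 were Hrh2 and Hdc in acid control, Slc4a2, Kcnj15 and Kcnj16 in ion transport, and Ppargc1a, Esrrb, Ckb and Ldhb in energy metabolism. Among receptors and ligands of acid control, 0 of 8 tested genes passed, 4 had a positive and 4 a negative log2 fold change, and the median was 0.01. Hrh2, the histamine receptor of the parietal cell, was at 2.63, 2.49 and 1.22 RPKM in Sox2 KO, against 1.07, 3.59 and 0.422 RPKM in Sox2 WT; it was singled out after its values were seen. Gnas, the stimulatory G protein subunit downstream of it, was between 67.8 and 68.0 RPKM in Sox2 KO and between 67.1 and 72.5 RPKM in Sox2 WT. Somatostatin, Sst, was at 389, 426 and 530 RPKM in Sox2 KO, against 293, 731 and 299 RPKM in Sox2 WT, and so had the high library of the pump genes but not their order.

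Of the other ion transport genes, 0 of 9 tested passed, with 6 positive and 3 negative log2 fold changes and a median of 0.10. Car2, the carbonic anhydrase that makes protons and bicarbonate, was between 1211 and 1469 RPKM in Sox2 KO and between 1101 and 1354 RPKM in Sox2 WT. Slc12a2, the sodium-potassium-chloride cotransporter, was between 46.1 and 61.8 RPKM in Sox2 KO and between 53.8 and 69.9 RPKM in Sox2 WT. Slc9a2, another sodium-proton exchanger, was between 59.1 and 93.4 RPKM in Sox2 KO and between 62.0 and 88.2 RPKM in Sox2 WT. Slc4a2, the basolateral chloride-bicarbonate exchanger, had the extremes of the pump, 1.81 times apart. Kcne3, a further accessory subunit for Kcnq1, was apart between the groups, at 29.3, 29.7 and 44.7 RPKM in Sox2 KO, against 49.2, 47.2 and 62.6 RPKM in Sox2 WT. Its log2 fold change was -0.63 (SE 0.195, unadjusted p = 0.0139) and did not pass over all genes (limma adjusted p = 1.00).

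For tubulovesicle trafficking, the membrane traffic that brings the pump to the surface, 0 of 8 genes passed and the median log2 fold change was 0.06. Ezr, the membrane-cytoskeleton linker ezrin, was at 396, 336 and 250 RPKM in Sox2 KO, against 303, 315 and 483 RPKM in Sox2 WT, and thus highest where Atp4a was lowest. Rab25, a small GTPase of recycling endosomes, was between 107 and 120 RPKM in Sox2 KO and between 97.4 and 124 RPKM in Sox2 WT. Among energy metabolism genes, 0 of 10 passed with a median of 0.07. Atp5a1, a subunit of mitochondrial ATP synthase, was between 529 and 569 RPKM in Sox2 KO and between 493 and 590 RPKM in Sox2 WT. Ckb, a brain-type creatine kinase, and Ldhb, a lactate dehydrogenase subunit, were both singled out after their values were seen. They were highest in Sox2 WT replicate 2 and lowest in Sox2 WT replicate 3, 4.04 and 5.32 times apart. Both extremes were held by 4 of the 10 genes, against 6.79% of all tested genes. Another creatine kinase gene, Ckmt1, was instead highest in Sox2 WT replicate 3, at 489 RPKM, against 394 RPKM in Sox2 WT replicate 2. Paralogs of the 10 genes, 15 tested, had 0 past the threshold and a median of -0.02, and Atp12a, the non-gastric proton pump subunit, was at most 0.0182 RPKM in any library.

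Markers of other cells of the corpus moved with the 10 genes in part. The 3 corpus endocrine genes, Hdc, Slc18a2 and Ghrl, were each highest in Sox2 WT replicate 2 and lowest in Sox2 WT replicate 3. The same extremes hold in 6.79% of all tested genes. Hdc is also 1 of the 9 acid secretion genes above. Hdc and Slc18a2 were low, with means of 1.78 and 2.02 RPKM over the 6 libraries. Ghrelin, Ghrl, was at 505, 602 and 468 RPKM in Sox2 KO, against 334, 1490 and 290 RPKM in Sox2 WT. Of the 8 chief cell symbols, which hold Gif also as Cblif and Chia also as Chia1, 6 were found and 5 tested. Gif, Bhlha15 and Cym were highest in Sox2 WT replicate 2 and lowest in Sox2 WT replicate 3. The sum was between 2102 and 5569 RPKM in Sox2 KO and between 512 and 4172 RPKM in Sox2 WT, most of it from the chitinase gene Chia except in Sox2 WT replicate 3. Chia was at 3255, 4857 and 1577 RPKM in Sox2 KO, against 801, 3239 and 221 RPKM in Sox2 WT, with its high in Sox2 KO replicate 2 (log2 fold change 1.81, SE 0.915, limma adjusted p = 1.00). Intrinsic factor, Gif, was at 551, 662 and 405 RPKM in Sox2 KO, against 302, 856 and 236 RPKM in Sox2 WT. Pga5, a pepsinogen, did not follow, at 49.7, 43.4 and 116 RPKM in Sox2 KO, against 85.1, 57.0 and 52.1 RPKM in Sox2 WT.

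Antral and surface genes did not share the order. The antral genes Gast, Pdx1 and Nkx6-3 deviated by a median of 0.09, 0.02 and 0.28 in Sox2 KO replicates 1 to 3 and 0.06, -0.44 and 0.02 in Sox2 WT replicates 1 to 3. The lowest of these values fell in the library with the most Atp4a. Pdx1, a transcription factor of the antrum and duodenum, was at 9.85 RPKM there, against 14.5 to 16.4 RPKM in Sox2 KO and 15.0 and 15.9 RPKM in the other Sox2 WT libraries. Nkx6-3 was also lowest there, at 65.4 RPKM. Gast was not: it was at 2766, 4439 and 6095 RPKM in Sox2 KO, against 6383, 3056 and 3496 RPKM in Sox2 WT. The 4 surface mucous genes were summed at 100120 to 158297 RPKM in Sox2 KO and 88410 to 150580 RPKM in Sox2 WT, lowest in Sox2 WT replicate 2. The 5 smooth muscle genes were summed at 368 to 579 RPKM in Sox2 KO and 381 to 594 RPKM in Sox2 WT. Of the 3 duodenal genes tested, 1, Apoa1, was highest in Sox2 WT replicate 2 and lowest in Sox2 WT replicate 3, while Fabp1 was highest in Sox2 KO replicate 2 and Fabp2 in Sox2 WT replicate 3. Of the 6 duodenal genes, Sis was listed at 0 in all libraries, and the sum was 125 to 206 RPKM in Sox2 KO and 77.0 to 339 RPKM in Sox2 WT, most of it Apoa1. Of the 3 gland and neck mucous genes, Pgc, which encodes pepsinogen C, had the extremes of the pump, at 28238, 29328 and 19292 RPKM in Sox2 KO, against 15353, 49042 and 11545 RPKM in Sox2 WT. Muc6 and Tff2 were both highest in Sox2 KO replicate 3. None of the 3 gland and neck mucous, 3 duodenal and 2 exocrine pancreas genes tested passed. The shares of corpus and duodenum in each dissected pylorus are not given by the labels, and their part in the spread of the 10 genes was not tested.

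**Figure D5:**
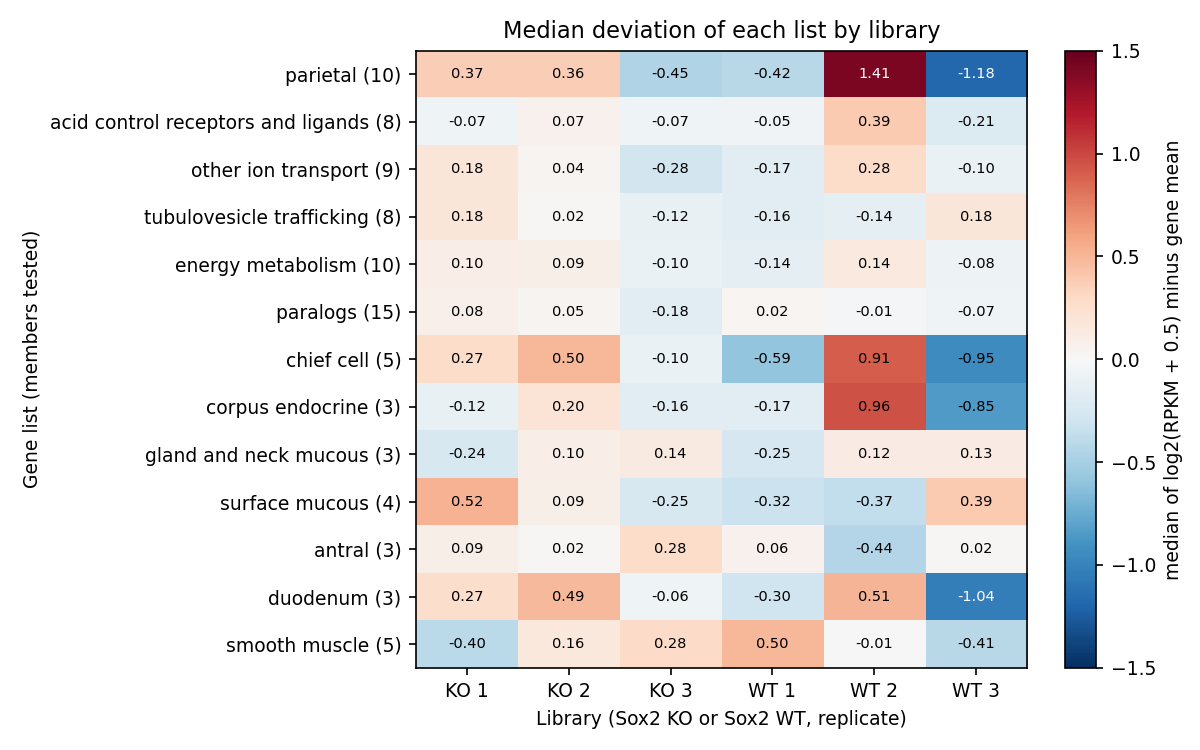
Median deviation of each gene list by library, in log2(RPKM + 0.5) minus the mean of each gene, with Sox2 KO libraries left of Sox2 WT libraries and the number of genes tested in parentheses. The medians of 4 other lists are, like the parietal list, highest in Sox2 WT replicate 2 and lowest in Sox2 WT replicate 3. These are the acid control, chief cell, corpus endocrine and duodenum lists. Both extremes are held by 2 of 8 genes in the acid control list and 1 of 3 in the duodenum list. The antral list is lowest in Sox2 WT replicate 2.

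The 8 genes whose pattern lay closest to the set were not on the lists of acid secretion, and 1 of them, Apoa1, stands in the duodenum list. Likeness was the root mean square difference, over the 6 libraries, from the median deviation of the 10 genes, and it was taken over 12509 genes with a mean of at least 1 RPKM. The 8 closest genes were Ppp1r3a, Apoa1, Trim50, Tnni3, Fabp3-ps1, Tmprss9, Fabp12 and Apoa4, with differences between 0.13 and 0.17, against a median of 0.84. Pgc, from the gland and neck mucous list, followed at rank 10 with a difference of 0.18. Ldhb and Hrh2, from the acid secretion lists, stood at ranks 12 and 19, with differences of 0.19 and 0.22. Among the 10 genes themselves the difference was between 0.12 for Kcne2 and 0.79 for Slc9a4. Ppp1r3a, a glycogen-targeting subunit of protein phosphatase 1 known from striated muscle, was at 2.03, 2.01 and 1.18 RPKM in Sox2 KO, against 1.03, 4.95 and 0.589 RPKM in Sox2 WT. Tnni3, known as cardiac troponin I, was at 31.2, 31.4 and 22.7 RPKM in Sox2 KO, against 16.3, 72.5 and 10.4 RPKM in Sox2 WT. Trim50, a tripartite-motif ubiquitin ligase, was at 6.85, 8.84 and 3.38 RPKM in Sox2 KO, against 4.31, 17.03 and 2.03 RPKM in Sox2 WT. The apolipoprotein genes Apoa1 and Apoa4 reached 315 and 39.9 RPKM in Sox2 WT replicate 2. Fabp3-ps1 is annotated as a pseudogene of Fabp3, so reads of the 2 may be mixed. In all 8 the Sox2 KO values lay inside the Sox2 WT range, and 0 passed the test.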

How the data were processed

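RNA sequencing values of 6 libraries were analysed. The authors deposited RPKM for 39179 genes. The submitters' processing notes name CASAVA 1.7, STAR and the build mm10. The counting tool, the annotation and whether strand was used are not given in these sources. The 6 single-library tables equal the series table. The smallest whole reads behind the RPKM were recovered from the steps between libraries, for 100% of 21724 genes above 0 in at least 2 libraries within 1e-05 reads; they may be a fraction of the true reads, and the depth sums are then too low.

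Of rows sharing a symbol the highest was kept, and genes with a mean of at least 0.5 RPKM (14045, all 10 parietal cell genes among them) entered limma 3.58.1 (R 4.3.3) on the log2(RPKM + 0.5) scale, with a variance trend and Benjamini-Hochberg adjustment over all genes at 0.05. Such fold changes understate those of low genes. The fit was tested on simulated data in which genes were drawn independently. That run lacks the shared spread of the 10 genes, so it does not show what could be detected in them. Coordinates and overlaps come from GENCODE mouse M21 (GRCm38, which is mm10).

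The members, lists and tests were chosen with earlier results of these data known. Besides the 10 genes and Sox2, up to 4 genes a list with the highest mean were named, and the 8 genes closest to the set; any other gene named was chosen after its values were seen. Alternatives were pseudocounts of 0.1 and 1, no filter or a mean of at least 1 RPKM, and median-of-ratios and quantile scaling. Others were no variance trend, a robust variance, the replicate number as a block, sex as a covariate, a threshold of 0.1 and each library left out. Voom on the recovered reads was added after the values were seen, and median-of-ratios rescaling of the spread was also unplanned.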

Additional observations from a re-analysis of the deposited data

How the results depend on the processing

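None of the 10 parietal cell genes passed under any alternative run. The number of genes past the threshold over the whole table was 4, and it was 1 with the replicate block, 1 with sex as a covariate, 8 with voom on the recovered reads, 8 at an adjusted p under 0.1, and between 1 and 8 with 1 library left out; the cause was not tested. The median log2 fold change of the 10 genes was 0.20, and between -0.34 and 0.89 with 1 library left out. By gene the same range was -0.40 to 1.02 for Atp4a, -0.41 to 1.08 for Atp4b, -0.16 to 0.84 for Slc26a7, -0.059 to 0.58 for Kcnq1, -0.35 to 0.94 for Kcne2, -0.49 to 1.05 for Aqp4, -0.088 to 0.28 for Slc9a4, -0.54 to 0.85 for Esrrg, -0.29 to 0.70 for Clic6 and -0.32 to 1.28 for Cckar. Esrrg was also at -0.0023 with voom, and no other alternative on all 6 libraries changed the sign of any of the 10. Median-of-ratios rescaling left the range of Atp4a at 7.17 times, and the median SD of the difference from Atp4a was between 0.21 and 0.29 with 1 library left out. Over all genes tested, deviations of same-numbered libraries correlated at 0.01, 0.10 and -0.07, and 3 of 6 libraries correlated best with their own number. In the 10 genes, however, the replicate block lowered the median SE from 0.652 to 0.372, and 0 of them passed. Whether libraries of the same number belong together was not tested further. Kcne3 kept its negative log2 fold change in all alternatives, with adjusted p between 0.357 and 1.00. Of 75 other listed genes tested, 0 passed under any alternative. With 3 libraries a group, an exact permutation test cannot go below p = 0.1.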
